A study of Mus musculus with 4 samples.

Results

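The genes described are the splicing factors of the SR and hnRNP families: every gene whose symbol begins with Srsf and a digit, or with Hnrnp, in the per-library expression files. The rule used names only and no measured value, and it took 31 of the 17559 genes listed, 11 SR genes and 20 hnRNP genes. They were measured by RNA-seq in CD8+ T cells of C57BL/6 mice that carry OT-I, a transgenic receptor specific for an ovalbumin peptide, from tissue labelled LN and purified to above 95%. All cells were first stimulated for 2 d with antibodies to CD3 at 1 µg/ml and to CD28 at 2 µg/ml, with IL-2 at 10 ng/ml present, and then kept in IL-2 alone for another 2 d. The 2 control libraries came from cells left untreated after that, and the 2 NaBu libraries from cells given 1 mM NaBu for 12 h. NaBu commonly stands for sodium butyrate, an inhibitor of histone deacetylases. The comparison asks how the messages of these splicing factors stood after butyrate in activated cells.

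SR proteins carry RNA recognition motifs and a tail rich in arginine and serine. They bind enhancer sequences in exons and recruit the spliceosome, the machine that removes introns. The hnRNPs coat nascent transcripts, often bind silencer sequences, and in many exons act against SR proteins, so that the balance of the families sets which exons are kept. Many of these genes limit their own output through an exon with a stop codon that sends the message to nonsense-mediated decay, and activated T cells are known to re-splice many genes, among them the CD45 phosphatase gene, a known target of hnRNP L and its relative hnRNP LL.

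Expected counts, the read numbers that RSEM assigned to genes, summed to between 19857701 and 20548571 per library. Of the 7 CD8 T cell markers checked, all had an FPKM (fragments scaled to transcript length and to library size, the authors' deposited level) of 1 or more, and they summed to 1814 and 1750 in the controls and 1643 in each NaBu library. Of these CD8 T cell markers 6 were called lower and 1 higher (median log2 fold change -0.5), beside 34.1% of all tested genes lower. The marker called higher was *Cd3g*, at 407 and 375 FPKM in the controls and 557 and 554.5 after NaBu. *Cd8b1* went from 218 and 215 to 155 in each NaBu library. *Cd4* lay between 0.02 and 0.66 FPKM. The *Zbtb7b* level made up most of the summed CD4 T cell markers, 19.6 to 21.4 FPKM in the controls and 27.1 to 27.2 in NaBu. Of 9 myeloid and dendritic cell markers in the files 5 reached an FPKM of 1 in a library, and they summed to 16.7 and 15.1 FPKM in the controls against 41.2 and 39.3 after NaBu, with *Cd68* the largest part. Of the 6 of these that were tested 5 were called higher and 1 lower (median log2 fold change 1.95). Among all tested genes 34.5% were called higher and 34.1% lower. The marker that fell was *Xcr1*, from 2.09 and 1.94 FPKM in the controls to 0.87 and 0.73 after NaBu. *Itgam* was at 0.45 FPKM in each control and at 4.83 and 3.79 after NaBu, *Mpeg1* at 0.2 and 0.39 against 1.96 and 1.86, and *Itgax* at 2.24 and 2.42 against 4.24 and 4.66. *Adgre1* did not exceed 0.02 and *Cd14* 0.21. Marker sums of B cells (1 of 5 at 1 FPKM) were 4.13 to 5.77 in the controls and 2.03 to 2.72 in NaBu. Those of NK cells (3 of 4) were 15.7 to 16.1 against 10.2 to 11.3, with *Ncr1* at 0.1 or less. In this list *Tyrobp* went the other way, from 1.14 and 0.87 FPKM in the controls to 1.8 and 1.71 after NaBu. Erythroid markers (1 of 4) summed to 1.34 to 1.39 against 6.85 to 7.37. *Hba-a1* made up most of that sum, at 1.0 and 0.81 FPKM in the controls and 6.59 and 7.24 after NaBu. *Hbb-bs* went from 0.16 and 0.48 to 0.0 in each NaBu library, and *Hbb-bt* and *Alas2* did not exceed 0.18. The stromal and endothelial sum (3 of 6), 22.1 to 24.5, overlapped between the groups. *Pecam1* made up most of that sum, at 20.8 and 21.9 FPKM in the controls and 16.96 and 16.25 after NaBu. *Epcam* was at 2.12 and 2.24 against 4.32 and 3.91, and *Pdgfrb* at 0.05 and 0.1 against 1.51 and 1.2. Of the 5 tested genes of this list 3 were called higher and 1 lower. The other sums moved with the groups while the splicing factor genes did, and their part in the results was not tested. The labels do not state that replicates are separate cultures or animals. The p-values therefore reflect only how far these libraries spread, and that spread may be technical.

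After NaBu most of the splicing factor messages were lower. Of the 11 SR genes 7 fell, 2 rose and 2 did not pass the test, and of the 20 hnRNP genes 17 fell, 1 rose and 2 did not pass. The test was edgeR's quasi-likelihood test with Benjamini-Hochberg adjustment over 12943 tested genes, called at an adjusted p under 0.05. NaBu changed much of the transcriptome: 68.6% of all tested genes were called, 34.5% higher and 34.1% lower. Against that background 63.6% of the SR genes and 85.0% of the hnRNP genes were called lower. The median log2 fold change was -0.65 for the SR genes, -0.57 for the hnRNP genes and 0.00 for all tested genes. Whether the classes differ from each other was not tested. All 31 members passed the filter on low counts. *Srsf12*, counted among the 2 SR genes that rose, did so only through the NaBu libraries, so it had to be higher there to be tested.

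In FPKM the groups overlapped for 5 members. NaBu lay below control for 6 SR and 17 hnRNP genes, against 35.9% of all tested genes, and above it for 2 SR genes and 1 hnRNP gene, against 48.0%. When edgeR's glmTreat asked for a change beyond 1.5-fold, 4 SR and 7 hnRNP genes were called lower (12.1% of all tested genes were) and *Srsf12*, with that limit, higher (17.1% were), with 29.2% called in either direction. Among the members called lower the falls were 1.15 to 2.02-fold for SR genes and 1.24 to 2.0-fold for hnRNP genes. In bulk libraries such as these, fewer cells of a kind and less RNA per cell cannot be told apart. Directions are relative to the scale of the TMM factors, which put the median of all genes at 0.005. With library totals instead that median was 0.102, and the medians were -0.55 for SR and -0.48 for hnRNP genes.

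**Figure D1:**
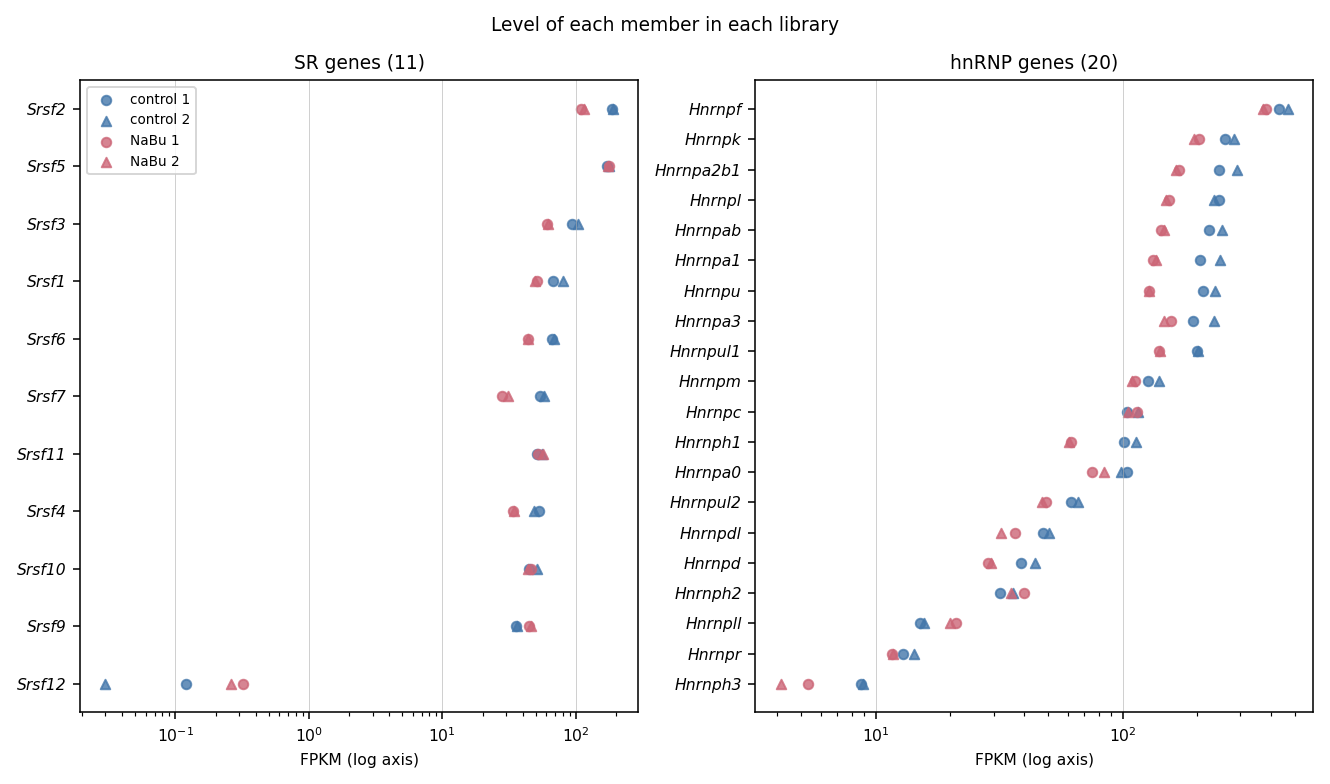
FPKM of each of the 31 members in each library on a log axis, SR genes in the left panel and hnRNP genes in the right, ordered by the control mean. Blue points are the 2 controls and red points the 2 NaBu libraries. For 23 members both red points lie left of both blue ones, and for *Srsf9*, *Srsf12* and *Hnrnpll* both lie right of them.

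The start regions of some members that fell and some that did not are printed here because most of the members moved together. They are the 150 bases before a RefSeq start, build GRCm38.p6, 5′ to 3′ on the gene's strand. Those of *Srsf2*, *Hnrnpa1* and *Hnrnpu* lie inside the listed bounds of the gene, and those of *Srsf7*, *Srsf5* and *Srsf9* partly inside. The start used is thus not the outermost for any of them. Capitals mark matches on either strand to the CCAAT box (letters CCAAT), the GC box (letters GGGCGG), the E-box (letters CACGTG), the ETS motif (letters CCGGAAG), the TATA box (letters TATAAA), the YY1 motif (letters AAGATGGC), the cyclic AMP response element (letters TGACGTCA) or the palindromic NRF1 motif, and matches that overlap run together. The first 4 genes fell, and of the other two *Srsf5* did not pass the test and *Srsf9* rose.
*Srsf2* (chr11:116853095-116853244, minus strand): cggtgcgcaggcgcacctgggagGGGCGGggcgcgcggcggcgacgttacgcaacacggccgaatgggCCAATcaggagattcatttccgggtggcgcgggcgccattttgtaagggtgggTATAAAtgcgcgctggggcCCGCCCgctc
*Srsf7* (chr17:80207306-80207455, minus strand): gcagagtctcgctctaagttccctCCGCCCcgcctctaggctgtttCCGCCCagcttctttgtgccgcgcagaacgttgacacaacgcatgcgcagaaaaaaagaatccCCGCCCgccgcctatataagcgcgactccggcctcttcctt
*Hnrnpa1* (chr15:103240247-103240396, plus strand): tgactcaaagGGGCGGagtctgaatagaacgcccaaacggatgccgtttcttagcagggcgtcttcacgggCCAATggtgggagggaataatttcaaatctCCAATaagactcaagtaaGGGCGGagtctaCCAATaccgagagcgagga
*Hnrnpu* (chr1:178337816-178337965, minus strand): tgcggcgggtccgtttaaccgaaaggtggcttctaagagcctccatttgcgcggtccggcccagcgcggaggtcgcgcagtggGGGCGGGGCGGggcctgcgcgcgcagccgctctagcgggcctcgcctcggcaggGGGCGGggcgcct
*Srsf5* (chr12:80945349-80945498, plus strand): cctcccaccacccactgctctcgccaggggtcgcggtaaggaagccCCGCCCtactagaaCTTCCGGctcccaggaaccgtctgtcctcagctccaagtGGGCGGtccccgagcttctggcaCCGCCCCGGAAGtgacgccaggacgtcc
*Srsf9* (chr5:115327027-115327176, plus strand): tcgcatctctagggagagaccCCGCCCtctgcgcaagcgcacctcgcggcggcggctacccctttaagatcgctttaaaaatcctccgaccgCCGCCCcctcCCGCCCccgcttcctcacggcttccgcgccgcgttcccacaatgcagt
Every printed stretch holds GC boxes. Those of *Srsf2* and *Hnrnpa1* also hold the CCAAT box, in *Hnrnpa1* repeatedly, while those of *Srsf7*, *Hnrnpu*, *Srsf5* and *Srsf9* hold no CCAAT. *Srsf2* also has a TATA box close to the start used, and *Srsf5* has ETS motifs.

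Promoter windows of 250 bases before to 50 after the start were listed for 29 members, all but *Hnrnpll* and *Hnrnpul2*. Where a gene had several windows, the first listed was used. The CCAAT box stood in 16 of the 29 (55.2%), against 39.4% of 10303 tested genes and 37.9% of all 27025 genes with a window. It was present in 14 of 23 members that fell and in 2 of the 6 that did not. The GC box GGGCGG stood in 23 members (79.3%), against 64.2% of tested and 35.9% of all genes, in 18 of those 23 and 5 of those 6. The TATA box was found in 4 members, all of which fell, a share of 13.8% against 6.98% of tested genes and 14.2% of all genes. The E-box was in 13.8% of members and 10.1% of tested genes, the ETS motif in 20.7% and 18.5%, and the YY1 motif in 3.45% and 4.79%. No member window held the cyclic AMP response element (3.34% of tested genes) or the NRF1 motif (2.11%). The 250 bases before the start were richer in G and C for members (64.2%) than for tested genes (59.9%) or all genes (53.0%). A match is a string of letters and not a shown binding site, and none of these shares was tested.

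Among the SR genes, *Srsf7* showed the deepest fall. *Srsf7* encodes an SR protein with a zinc knuckle that also acts in mRNA export. Control FPKM was 54.2 and 58.0, and NaBu FPKM 28.1 and 31.0. The log2 fold change was -1.02 ± 0.07 (SE) with an edgeR adjusted p of 4.72e-07, which is a fall of 2.02-fold. *Srsf2*, whose product SC35 marks nuclear speckles and helps to define exons, was the most abundant SR message in the controls. Its FPKM was 185 and 188 in the control libraries and 109 and 115 with NaBu. That gave a log2 fold change of -0.84 ± 0.06 (SE), edgeR adjusted p 6.89e-07. The NaBu values of both genes lay far below either control, and the libraries of a group differed by little.

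*Srsf3* encodes the smallest SR protein, which couples splicing to export and polyadenylation. The controls had 94.0 and 103 FPKM and the NaBu libraries 61.2 and 62.1. On the count scale the log2 fold change was -0.72 ± 0.06 (SE), edgeR adjusted p 3.18e-06. *Srsf6*, an SR protein with paired RNA recognition motifs, was nearly alike within each group. Its level was 66.1 and 68.0 FPKM without NaBu and 43.5 and 43.4 FPKM with it. By edgeR the log2 fold change was -0.72 ± 0.06 (SE) at an adjusted p of 1.5e-06. These genes and the preceding pair are the 4 SR genes whose fall passed the test against 1.5-fold.

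*Srsf1*, the founding SR protein and a proto-oncogene product, fell, with the controls further apart than the NaBu libraries. The gene stood at 67.1 and 80.1 FPKM in the controls and at 51.0 and 49.6 after NaBu. edgeR put the log2 fold change at -0.65 ± 0.08 (SE), adjusted p 4.62e-05. *Srsf4*, a large SR protein with a long arginine-serine tail, had the first control above the other. *Srsf4* had 52.6 and 48.6 FPKM in the controls against 33.8 and 34.5 with NaBu. *Srsf4* had a log2 fold change of -0.66 ± 0.06 (SE), edgeR adjusted p 5.38e-06. Neither passed the test against 1.5-fold, with adjusted p 0.252 for *Srsf1* and 0.12 for *Srsf4*.

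*Srsf5*, an early response gene product in growth-stimulated cells, was not called. Control FPKM was 171 and 178, and NaBu FPKM 176 and 173. The NaBu libraries lay within the range of the controls, and the log2 fold change was -0.10 ± 0.06 (SE) with an edgeR adjusted p of 0.173. With *Srsf2* lower, *Srsf5* became the most abundant SR message after NaBu. *Srsf5* made up 20.7% of the summed SR FPKM in the controls and 26.9% after NaBu, whereas *Srsf2* went from 22.1% to 17.2%.

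*Srsf9*, a short SR protein related to SRSF1, was the classical SR gene that was higher. Its FPKM was 35.6 and 36.2 in the control libraries and 44.1 and 45.8 with NaBu. The log2 fold change was 0.23 ± 0.07 (SE) with an edgeR adjusted p of 0.0151, which is 1.17-fold higher. This small change was not called by DESeq2 (adjusted p 0.0784) or by edgeR without NaBu 1 (0.0874) or without NaBu 2 (0.166). *Srsf9* took 4.26% of the SR sum in the controls and 6.92% after NaBu.

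*Srsf10*, *Srsf11* and *Srsf12* encode relatives of the classical SR proteins. *Srsf10*, whose dephosphorylated product is a general splicing repressor, overlapped between the groups in FPKM. The controls had 44.4 and 51.1 FPKM and the NaBu libraries 45.8 and 43.9. The edgeR test on counts called it lower by a little (log2 fold change -0.20 ± 0.07 (SE), adjusted p 0.0358), and neither DESeq2 (0.0544), library totals (0.252) nor limma on log2(FPKM + 1) (0.405) did. Leaving out control 2, NaBu 1 or NaBu 2 also ended that call, at adjusted p 0.148, 0.134 and 0.244. *Srsf11*, an SR-related splicing factor, also overlapped. Its level was 50.7 and 56.1 FPKM without NaBu and 51.6 and 56.7 FPKM with it. Its log2 fold change was -0.08 ± 0.07 (SE), edgeR adjusted p 0.37.

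*Srsf12*, a distant relative of the classical proteins, was barely present in any library. Its FPKM was 0.12 and 0.03 in the controls and 0.32 and 0.26 after NaBu, which rest on 7 and 2 against 19 and 15 expected counts. That gave a log2 fold change of 1.83 ± 0.52 (SE), edgeR adjusted p 0.00915, but since the gene entered the test only through the NaBu libraries its p is no independent support. Without control 2 the log2 fold change was 1.2. The call was lost with DESeq2 (adjusted p 0.104), with no filter on low counts (0.0566), without NaBu 1 (0.076) and without control 2 (0.0844). It gave 0.00904% of the summed SR FPKM in the controls and 0.0447% after NaBu.

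**Figure D2:**
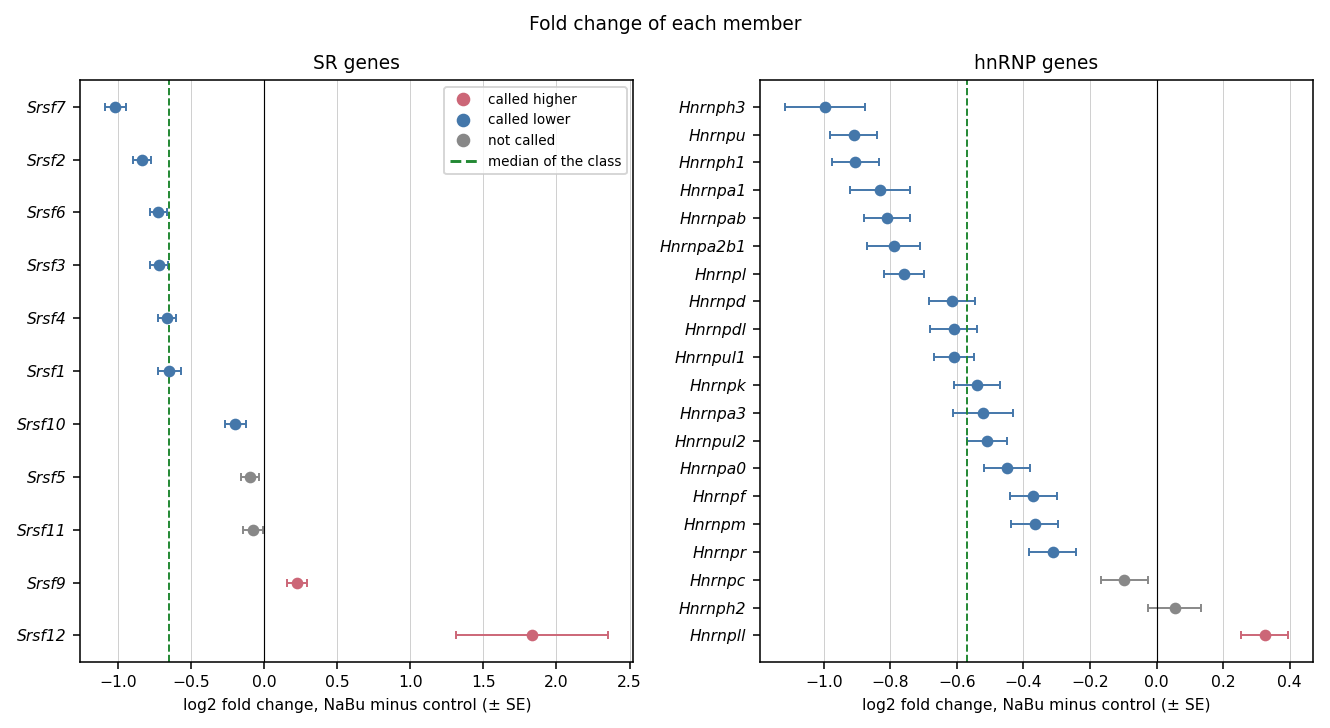
log2 fold change (NaBu minus control) of each member with its standard error, SR genes left and hnRNP genes right, on separate horizontal scales. Blue marks members called lower, red those called higher and grey those not called at an edgeR adjusted p under 0.05. The dashed line is the class median, -0.65 for SR and -0.57 for hnRNP genes.

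The A/B-type hnRNPs, abundant proteins with paired RNA recognition motifs that often silence exons, all fell (5 of 5, median log2 fold change -0.79, beside 34.1% of all tested genes lower). *Hnrnpa1*, the best known antagonist of SRSF1, was spread in the controls and tight after NaBu. The gene stood at 205 and 247 FPKM in the controls and at 133 and 137 after NaBu. On the count scale the log2 fold change was -0.83 ± 0.09 (SE), edgeR adjusted p 1.42e-05. *Hnrnpa2b1*, which also sorts RNAs for transport, showed the same spread. *Hnrnpa2b1* had 245 and 291 FPKM in the controls against 168 and 165 with NaBu. By edgeR the log2 fold change was -0.79 ± 0.08 (SE) at an adjusted p of 9.87e-06. *Hnrnpab*, a binder of RNA and single-stranded DNA, was at a similar level. Control FPKM was 223 and 253, and NaBu FPKM 143 and 147. edgeR put the log2 fold change at -0.81 ± 0.07 (SE), adjusted p 3.44e-06. These passed the test against 1.5-fold.

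*Hnrnpa3*, close in sequence to *Hnrnpa1* and *Hnrnpa2b1*, fell less. Its FPKM was 193 and 233 in the control libraries and 157 and 147 with NaBu. *Hnrnpa3* had a log2 fold change of -0.52 ± 0.09 (SE), edgeR adjusted p 0.000539. *Hnrnpa0*, an intronless relative that binds AU-rich messages, had the smallest fall of the type. The controls had 104 and 98.1 FPKM and the NaBu libraries 74.9 and 83.7. The log2 fold change was -0.45 ± 0.07 (SE) with an edgeR adjusted p of 0.000216. Summed over the A/B type, FPKM went from 1047 ± 107 (SD, n = 2) in the controls to 677.6 ± 2.09 (SD, n = 2) after NaBu. In each gene of the type except *Hnrnpa0*, control 2 stood above control 1.

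*Hnrnpc* encodes the protein that coats uridine tracts in introns and keeps cryptic exons out. Its level was 104 and 116 FPKM without NaBu and 114 and 105 FPKM with it. The ranges were nearly the same, and the log2 fold change was -0.10 ± 0.07 (SE), edgeR adjusted p 0.254. *Hnrnpd* (AUF1), which binds AU-rich elements and promotes decay of cytokine messages, fell. The gene stood at 38.6 and 44.1 FPKM in the controls and at 28.6 and 29.3 after NaBu. That gave a log2 fold change of -0.61 ± 0.07 (SE), edgeR adjusted p 2.56e-05. Its relative *Hnrnpdl* fell too. *Hnrnpdl* had 47.6 and 50.5 FPKM in the controls against 36.7 and 32.1 with NaBu. On the count scale the log2 fold change was -0.61 ± 0.07 (SE), edgeR adjusted p 3.1e-05.

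The F/H-type hnRNPs bind runs of guanine, and their log2 fold changes ran from -0.996 to 0.05. *Hnrnpf* was the most abundant member of either class. Control FPKM was 429 and 467, and NaBu FPKM 380.3 and 369. By edgeR the log2 fold change was -0.37 ± 0.07 (SE) at an adjusted p of 0.00061. *Hnrnph1* fell further. Its FPKM was 102 and 113 in the control libraries and 61.9 and 60.7 with NaBu. edgeR put the log2 fold change at -0.90 ± 0.07 (SE), adjusted p 9.11e-07, past the test against 1.5-fold. The share of *Hnrnpf*, which fell 1.29-fold against 1.87-fold for *Hnrnph1*, grew from 14.9% to 17.5% of the summed hnRNP FPKM.

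*Hnrnph2*, on chromosome X, encodes a protein nearly identical to hnRNP H1 and was not called. The controls had 32.0 and 35.9 FPKM and the NaBu libraries 39.9 and 35.3. The groups overlapped and the log2 fold change was 0.05 ± 0.08 (SE), edgeR adjusted p 0.564. *Hnrnph3*, a shorter relative, was the least abundant hnRNP message and fell the most. Its level was 8.74 and 8.86 FPKM without NaBu and 5.31 and 4.12 FPKM with it. *Hnrnph3* had a log2 fold change of -0.996 ± 0.12 (SE), edgeR adjusted p 3.09e-05, also past the test against 1.5-fold. RSEM shares reads out among genes they match equally well, and expected counts that were not whole (beyond 0.005) occurred for 11 members, among them *Hnrnpf*, *Hnrnph1*, *Hnrnph2* and *Hnrnph3*. The summed F/H level went from 597.8 ± 38.0 to 478.2 ± 13.0 FPKM (SD, n = 2 each). Sharing within the type enters that sum less, but sharing with genes outside the type is not removed by it.

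*Hnrnpk*, a KH-domain protein that binds cytosine-rich sequences, was the second most abundant hnRNP message. The gene stood at 260.1 and 281 FPKM in the controls and at 204 and 194 after NaBu. The log2 fold change was -0.54 ± 0.07 (SE) with an edgeR adjusted p of 4.03e-05. *Hnrnpl* binds CA repeats and represses variable exons of CD45. *Hnrnpl* had 246 and 234 FPKM in the controls against 154 and 150.01 with NaBu. That gave a log2 fold change of -0.76 ± 0.06 (SE), edgeR adjusted p 1.58e-06. *Hnrnpl* passed the test against 1.5-fold and *Hnrnpk* did not.

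*Hnrnpll*, the relative of *Hnrnpl* that is induced on T cell activation and drives skipping of the same CD45 exons, moved the other way. Control FPKM was 15.1 and 15.6, and NaBu FPKM 21.2 and 19.98. On the count scale the log2 fold change was 0.32 ± 0.07 (SE), edgeR adjusted p 0.0017, which is 1.25-fold higher. No other hnRNP gene was called higher in that test, and the call was lost without NaBu 1 (adjusted p 0.0578). In every library *Hnrnpl* was the more abundant, its lowest FPKM being 150.01 and the highest of *Hnrnpll* 21.2.

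*Hnrnpm* binds GU-rich sequences. Its FPKM was 127 and 140.2 in the control libraries and 112 and 109 with NaBu. By edgeR the log2 fold change was -0.37 ± 0.07 (SE) at an adjusted p of 0.000684. *Hnrnpr*, a relative of SYNCRIP, fell by less still. The controls had 12.9 and 14.3 FPKM and the NaBu libraries 11.7 and 11.8. edgeR put the log2 fold change at -0.31 ± 0.07 (SE), adjusted p 0.00163. *Hnrnpr* missed the threshold with limma on log2(FPKM + 1), at an adjusted p of 0.0527.

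The U-type proteins bind both chromatin and RNA, and all 3 genes fell, where 34.1% of all tested genes did. *Hnrnpu* (SAF-A) is the nuclear scaffold protein of the type. Its level was 211 and 238 FPKM without NaBu and 127 and 128 FPKM with it. *Hnrnpu* had a log2 fold change of -0.91 ± 0.07 (SE), edgeR adjusted p 1.28e-06, which is 1.88-fold lower and passed the test against 1.5-fold. *Hnrnpul1*, which also acts at DNA breaks, followed with a smaller change. The gene stood at 200.1 and 202 FPKM in the controls and at 140.1 and 142 after NaBu. The log2 fold change was -0.61 ± 0.06 (SE) with an edgeR adjusted p of 6.87e-06. *Hnrnpul2*, the other relative, changed least. *Hnrnpul2* had 62.0 and 66.1 FPKM in the controls against 48.9 and 47.3 with NaBu. That gave a log2 fold change of -0.51 ± 0.06 (SE), edgeR adjusted p 3.5e-05.

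Summed over the classes, SR FPKM was 821.0 and 867.1 in the controls and 644.3 and 655.2 after NaBu, a ratio of NaBu to control means of 0.77. The hnRNP sum was 2867 and 3149 against 2162 and 2117, a ratio of 0.711. Neither sum overlapped between the groups. The hnRNP sum was 3.49 and 3.63 times the SR sum in the controls and 3.36 and 3.23 times after NaBu, so the balance of the classes moved by less than either sum did. These sums are given as descriptions and were not tested. For a single value such as these, an exact two-sided permutation test of 2 against 2 libraries cannot go below 0.33.

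Within the control group the members also moved together. Control 2 was above control 1 for 27 of the 31 members (9 of 11 SR and 18 of 20 hnRNP genes), where this held for 48.4% of all tested genes. The median log2 difference in FPKM between these libraries was 0.12 over members and 0.00 over all tested genes. In the NaBu group 13 of 31 members were higher in NaBu 2, and the median difference was -0.03. The difference between the controls was thus shared by most members and smaller than their median fall of -0.61. Without control 2, 17 hnRNP and 6 SR genes were still called lower.

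**Figure D3:**
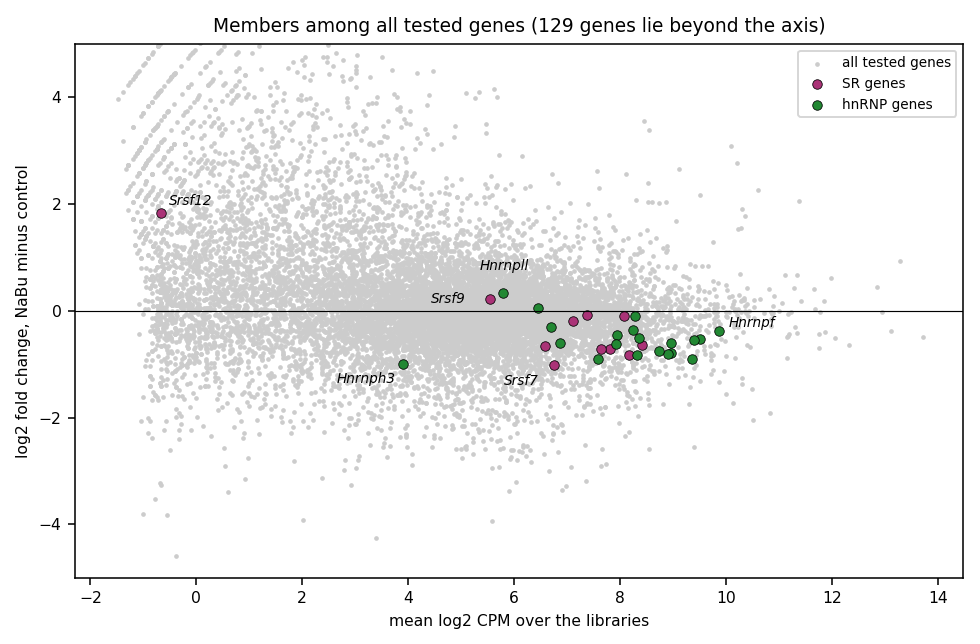
log2 fold change (NaBu minus control) against mean log2 CPM (counts scaled to library size) of all 12943 tested genes in grey, of which 129 lie beyond the vertical axis, with SR genes in purple and hnRNP genes in green. Apart from *Srsf12* and *Hnrnph3* the members sit at the right of the cloud, among highly expressed genes, and mostly under the line at 0.

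The members were strongly expressed as a rule. Their FPKM was 5 or more in every library for 29 of 31, and 50 or more in both controls for 21. The exceptions to the first were *Srsf12* and *Hnrnph3*, the latter reaching 4.12 in NaBu 2.

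The deposited files also give each gene's average transcript length per library, which moves when RSEM assigns reads to longer or shorter transcripts of a gene. It could vary for the 19 members with several listed transcripts. The groups did not overlap for 9 of them, 4 longer and 5 shorter after NaBu, and among 4119 tested genes with several transcripts 18.99% were longer and 19.2% shorter without overlap. The median size of the difference was 0.149% for members and 0.221% for those genes, whose 90th percentile was 2.83%. Lengths carry no test here.

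*Srsf3* and *Hnrnpa3* were the members past that percentile. *Srsf3* averaged 2734 and 2721 bases in the controls and 2826 in each NaBu library, 98.2 bases or 3.6% longer, where the controls differed by 12.5 bases. The files list for it a protein-coding and a non-coding transcript. *Hnrnpa3* averaged 3831 and 3921 bases in the controls and 4044 and 4071 after NaBu, 181.8 bases or 4.69% longer, beside a gap of 90.3 bases between the controls. *Hnrnpf* was shorter, with 2279 and 2260 bases against 2244 and 2243. The lengths of the single transcripts were not used here, so the share of each transcript is not given.

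**Figure D4:**
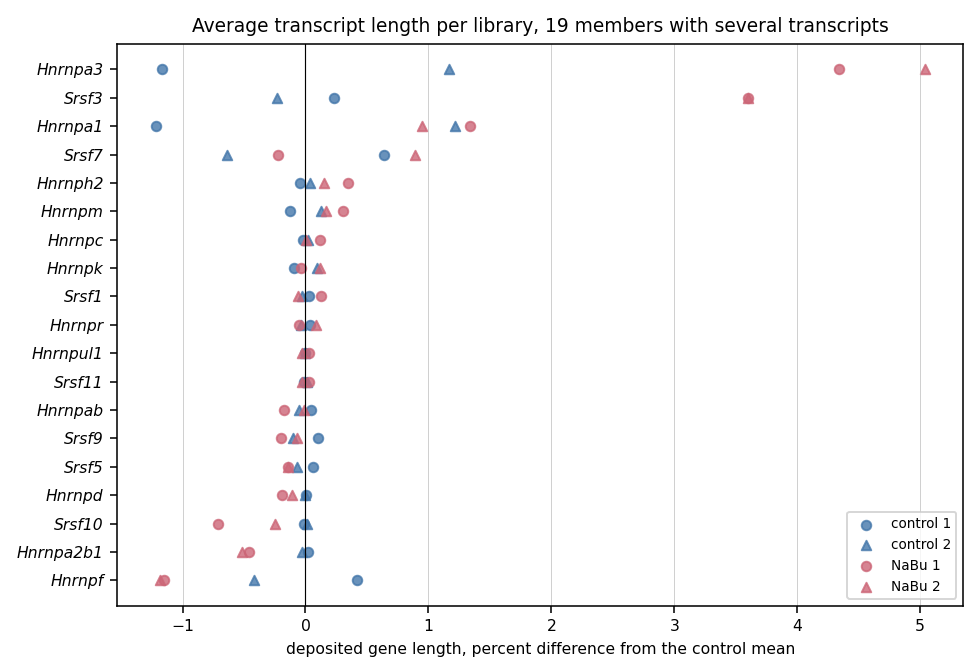
Average transcript length of the 19 members with several transcripts in each library, as percent difference from the control mean. Circles are replicate 1 and triangles replicate 2, blue for control and red for NaBu. *Srsf3* and *Hnrnpa3* stand out to the right by 3.6% and 4.69%, and most members lie close to 0.

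Exons of 7 members overlap those of another listed gene. The strandedness was not stated in the sources used here, so reads from opposite strands in such stretches cannot be told apart. *Hnrnpab* shares up to 499 bases with *Phykpl* on the opposite strand, whose FPKM was 7.9 and 6.03 in the controls and 14.94 and 14.96 after NaBu. *Srsf2* shares up to 460 bases with *Mettl23* (18.4 and 19.4 against 27.4 and 29.1 FPKM). *Hnrnpm* overlaps *March2* on the same strand by up to 1149 bases (27.0 and 26.6 against 39.9 and 41.6 FPKM). These partners were called higher after NaBu, and the members lower. *Hnrnph3* shares up to 115 bases with *Rufy2*, also called higher, at 3.78 and 3.45 against 4.92 and 4.25 FPKM, which after NaBu is about the level of *Hnrnph3* itself (5.31 and 4.12). The part of these overlaps in the results was not tested. Other partners were *Rmi1* of *Hnrnpk*, *Cox20* of *Hnrnpu*, *Mfsd11* of *Srsf2* and *Gm12992* of *Srsf4*.

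Other genes of the splicing pathway were taken from 12 lists, of 175 genes in all, of which 172 were tested. Of these 111 fell, 14 rose and 47 did not pass the test, with a median log2 fold change of -0.34. Over all tested genes 34.1% fell and 34.5% rose, with a median of 0.00. The counts of each list below stand beside those shares. The SR and hnRNP genes had lower medians than the 172 genes of these lists, a difference that was not tested. Genes said to have fallen or risen passed the same edgeR test.

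Of the kinases that phosphorylate SR proteins and set their place in the cell, 8 were tested. Of them 3 fell and 1 rose (median -0.06), a share of falls near the 34.1% of all tested genes. *Srpk2*, a cytoplasmic SR protein kinase, rose from 9.03 and 10.4 FPKM in the controls to 14.8 and 13.5 (log2 fold change 0.45 ± 0.08 (SE), edgeR adjusted p 0.000552). *Clk1*, a nuclear one, fell from 28.2 and 28.8 to 17.5 and 18.9 (log2 fold change -0.74 ± 0.07 (SE), edgeR adjusted p 7.36e-06). *Clk4* and *Dyrk1a* fell with log2 fold changes of -0.54 and -0.60. *Srpk1*, chosen after its values were seen, stayed between 43.4 and 48.3 FPKM in the 4 libraries and was not called.

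The SR-like coactivators counted 14 lower and 1 higher of 23 (median -0.29). *Srek1*, an SR-related regulator, fell from 10.0 and 11.7 to 5.42 and 4.87 FPKM, a log2 fold change of -1.17 ± 0.10 (SE). *Sfswap* and *Luc7l2*, the latter a U1 partner, fell with -0.88 and -0.73, and *Scaf4* rose with 0.25, a call lost without NaBu 1 (adjusted p 0.108). *Tra2b*, a partner of SR proteins at purine-rich enhancers chosen after its values were seen, fell from 121.6 and 122.4 to 81.4 and 86.5 FPKM (log2 fold change -0.64).

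Proteins counted among the hnRNPs under other symbols fell in 12 of 15 cases and rose in none (median -0.58), close to the median of the genes named Hnrnp. *Rbm3*, a cold-induced RNA-binding protein, fell with a log2 fold change of -0.91. *Rbmx* (hnRNP G) fell from 25.5 and 27.0 to 5.96 and 6.3 FPKM, a log2 fold change of -2.20 ± 0.08 (SE), and its near copy *Rbmxl1*, chosen after its values were seen, from 71.5 and 74.8 to 51.4 and 54.8 (-0.56). Expected counts were not whole for either gene and add to whole numbers as a pair in each library. RSEM thus divided reads between *Rbmx* and *Rbmxl1*, so the size of each change is uncertain. *Ptbp1*, chosen likewise, which binds polypyrimidine tracts and represses exons, fell from 278.0 and 268.7 to 162.8 and 167.3 FPKM (-0.82).

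Other regulators had 13 lower and 5 higher of 21 (median -0.33). The 5 include a pair of nearly silent genes, named after their values were seen. *Esrp1* had 2 and 0 expected counts in the controls and 32 and 18 after NaBu, and it entered the test only through the NaBu libraries. *Rbfox2* had 10 and 11 against 132 and 157, or 0.07 and 0.08 against 1.0 and 1.16 FPKM (log2 fold change 3.71 ± 0.24 (SE)). The controls alone would not have brought *Rbfox2* past the filter on low counts either, so the test of neither gene is independent support. *Celf2*, a regulator of T cell splicing, fell from 51.6 and 57.3 to 19.7 and 20.9 FPKM, a log2 fold change of -1.52 ± 0.07 (SE). The muscleblind genes split: *Mbnl3* fell with -1.55, while *Mbnl1* and *Mbnl2* rose with 0.28 each. *Mbnl1*, the most abundant of them, went from 182.1 and 201.5 to 258.8 and 247.6 FPKM, and its call was lost without NaBu 1 (adjusted p 0.0985) or NaBu 2 (0.0548). *Rbm10* fell with -0.97 and *Rbm17* rose with 0.35.

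The core spliceosome was lower in most lists. Genes of the U1 snRNP and U2AF counted 6 lower and 0 higher of 9 (median -0.30), led by *U2af2*, the large U2AF subunit that reads the polypyrimidine tract, which fell from 152.6 and 147.8 to 65.9 and 68.5 FPKM (log2 fold change -1.26 ± 0.06 (SE)). Its partner *U2af1* fell with -0.54. The U2 snRNP counted 10 lower and 1 higher of 14 (median -0.36), with *Snrpa1*, *Sf3b2* and *Sf3a3* at -0.96, -0.73 and -0.68 and *Ddx46* at 0.23. The call of *Ddx46* was lost without NaBu 1 (adjusted p 0.23), without control 1 (0.0501) and with no filter on low counts (0.0807). The tri-snRNP counted 9 lower and 1 higher of 14 (median -0.30), with *Ppih*, *Snrnp40* and *Eftud2* at -1.32, -0.91 and -0.44 and *Prpf6* at 0.38. The Prp19 complex and step factors counted 9 lower and 1 higher of 17 (median -0.18), with *Plrg1*, *Dhx38* and *Cwc22* at -0.63, -0.63 and -0.58 and *Dhx16* at 0.37.

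The Sm and LSm proteins, which form the rings of the snRNPs, counted 11 lower and 2 higher of 15 (median -0.52). *Lsm3* fell from 50.6 and 49.1 to 17.7 and 17.5 FPKM, a log2 fold change of -1.60 ± 0.09 (SE), and *Lsm2* and *Lsm8* fell with -1.08 and -0.80. *Snrpn*, an imprinted Sm gene, rose from 2.41 and 2.24 to 7.09 and 5.79 FPKM, and *Snrpd3* rose with 0.26, a call lost without NaBu 1 (adjusted p 0.0742) or NaBu 2 (0.0578). The SMN complex, which loads these rings, counted 5 lower and 1 higher of 12 (median -0.05). Its share of falls was not far above the 34.1% of all tested genes. *Gemin5* rose from 9.62 and 10.4 to 18.6 and 18.1 FPKM (log2 fold change 0.78 ± 0.06 (SE)), while *Gemin4*, *Gemin6* and *Gemin2* fell with -0.73, -0.59 and -0.46.

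Factors of nonsense-mediated decay, the route that removes SR and hnRNP messages with a premature stop, counted 10 lower and 1 higher of 14 (median -0.35). *Upf3a*, *Magoh* and *Smg5* fell with log2 fold changes of -0.92, -0.80 and -0.49, and *Smg1*, the kinase of UPF1, rose with 0.29, which was not called without NaBu 2 (adjusted p 0.141). Factors of SR protein import and mRNA export counted 9 lower and 0 higher of 10 (median -0.45). *Alyref*, an export adaptor, fell from 73.8 and 85.5 to 30.1 and 28.1 FPKM (log2 fold change -1.55 ± 0.09 (SE)), and *Ddx39* and *Thoc1* fell with -1.15 and -1.14.

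**Figure D5:**
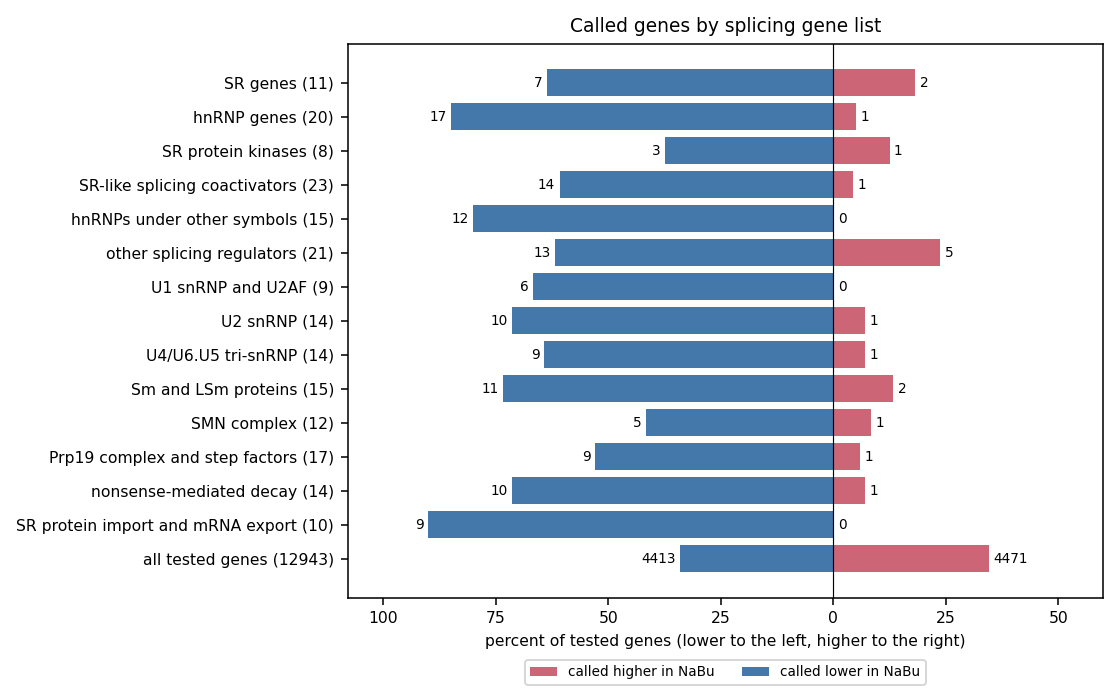
Percent of the tested genes of each list that were called lower (blue, to the left) or higher (red, to the right) after NaBu, with the number called at the end of each bar and the number tested in parentheses. All 14 splicing lists have more genes called lower than higher, while all tested genes divide into 4413 lower and 4471 higher.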

How the data were processed

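RNA-seq was measured in 2 control and 2 NaBu libraries, grouped by the sample titles. Alignment used Bowtie2 and quantification RSEM on mm10, per the submitters' processing notes. Versions, like strandedness, were not given in the sources used here. The deposited files give an expected count, an FPKM and a length per gene and library, per the file headers. The FPKM values equal those of the authors' deposited series table (largest difference 0.0). A gene that a library does not list was set to 0. Of 17559 genes, 17518 and all 31 members matched the RefSeq table of GRCm38.p6. Promoter windows were those of RefSeq on that build. Exon positions for the overlaps came from GENCODE on GRCm38, joined by gene symbol.

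Expected counts were rounded and tested with edgeR 4.0.16 in R 4.3.3 across all genes that filterByExpr kept (12943, with 99.95% of counts), using TMM factors, a quasi-likelihood fit without covariates and Benjamini-Hochberg adjustment at 0.05. A standard error is the size of the log2 fold change over the square root of F. The code was tested on simulated data. Alternatives were DESeq2 1.42.0, limma 3.58.1 on log2(FPKM + 1) or log2(FPKM + 0.1), other scalings and filters, glmTreat against 1.5-fold, a replicate block and leaving out each library.

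Members, pathway lists and markers were chosen with earlier results of these data known. All members may be named. Of each pathway list the text names up to 3 called genes per direction by size of change, if their groups do not overlap and the higher group averages at least 5 FPKM. Some genes that this takes are not reported here. Markers that the files do not hold were not analysed here.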

Additional observations from a re-analysis of the deposited data

How the results depend on the processing

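Under the alternatives run, no called member changed direction. The count of all genes called, 8884, was 3779 with glmTreat against 1.5-fold and 7099 to 8850 when a library was left out. SR genes called lower (7) numbered 4 with glmTreat and 6 to 8 when a library was left out, and those called higher (2) numbered 0 with DESeq2, 1 with glmTreat, at least 5 CPM, no filter on low counts, or limma on log2(FPKM + 0.1) or log2(FPKM + 1), and 0 to 2 when a library was left out. hnRNP genes called lower (17) numbered 7 with glmTreat and 17 to 18 when a library was left out, and the 1 called higher became 0 with glmTreat and 0 to 1 when a library was left out. *Srsf5* and *Hnrnpc* were called lower without control 1 (adjusted p 0.0445 and 0.0308). Where only 1 library of a group was left, it is assumed to vary like the other group's. Fewer samples enter those fits, and for the other changes the cause was not tested. Median-of-ratios factors changed no member's call, and the size of *Srsf12* is limited by its few counts.

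Replicate numbers are shared between the groups. With the replicate block 8853 genes were called and no member's call changed. The deviations of same-numbered libraries correlated at -0.031 over all 12943 tested genes, and at -0.12 over the 8918 with at least 10 CPM, so the libraries are not shown to be paired. A crossed pairing, chosen after seeing the data, called 9073.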
